A study of Homo sapiens with 9 samples.

Results

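Secreted matrix metalloproteinases, their protein inhibitors (the TIMPs) and the membrane-bound inhibitor RECK were followed by mRNA sequencing in LN229 cells, a line established from a human glioblastoma. The 10 genes were chosen by name and found in the deposited count table by their Ensembl identifiers: MMP1, MMP2, MMP3, MMP9, MMP11, MMP19, TIMP1, TIMP2, TIMP3 and RECK, of 23727 genes in all. The cells grew in medium with glucose, glutamine and fetal bovine serum. Sodium formate, the salt of formic acid, was added at 500 µM for 8 h or 24 h, and the comparison group was untreated cells taken at 0 h. Each group held 3 libraries, numbered as replicates 1 to 3. No untreated cells were sampled at 8 h or 24 h, so formate and time in culture cannot be told apart. LN229 is 1 cell line, so the 3 libraries of a group do not stand for different tumours.

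Matrix metalloproteinases are zinc endopeptidases that cut collagens, laminins and other proteins around cells. The secreted ones leave the cell as proenzymes or, for MMP11, after activation by furin inside the cell. TIMPs bind the active site of the mature enzymes and block it, and RECK restrains several of them at the cell surface. In glioma the gelatinases MMP2 and MMP9 are studied for their part in cutting basement membrane.

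Total counts per library lay between 22222298 and 25848242. On the first principal component of the 500 most variable genes, which held 70.7% of the variance, replicate 1 stood apart from replicates 2 and 3 at 0 h (scores of -23.5, -2.26 and -0.798) and at 8 h (-21.6, -3.08 and -3.41), on the side away from the libraries of 24 h (9.56, 20 and 25). Results were therefore also computed without the 3 libraries numbered 1. Of the glioma and astroglial markers VIM, NES, CD44, SOX2 and S100B were abundant, SOX9 had at most 27 counts in a library and GFAP at most 10. The endothelial and the blood-cell markers had at most 38 and 11 counts for any gene.

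The genes fell into an abundant set and a nearly silent set. MMP2, TIMP1, TIMP2 and TIMP3 had at least 9041 counts in every library, RECK had 245 to 328 and MMP11 had 50 to 222. MMP1, MMP3, MMP9 and MMP19 had at most 12 counts in any library, were removed by the filter on low counts, and are too low to judge. So 6 of the 10 genes were tested, and those 6 were well above the filter in every library.

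**Figure D1:**
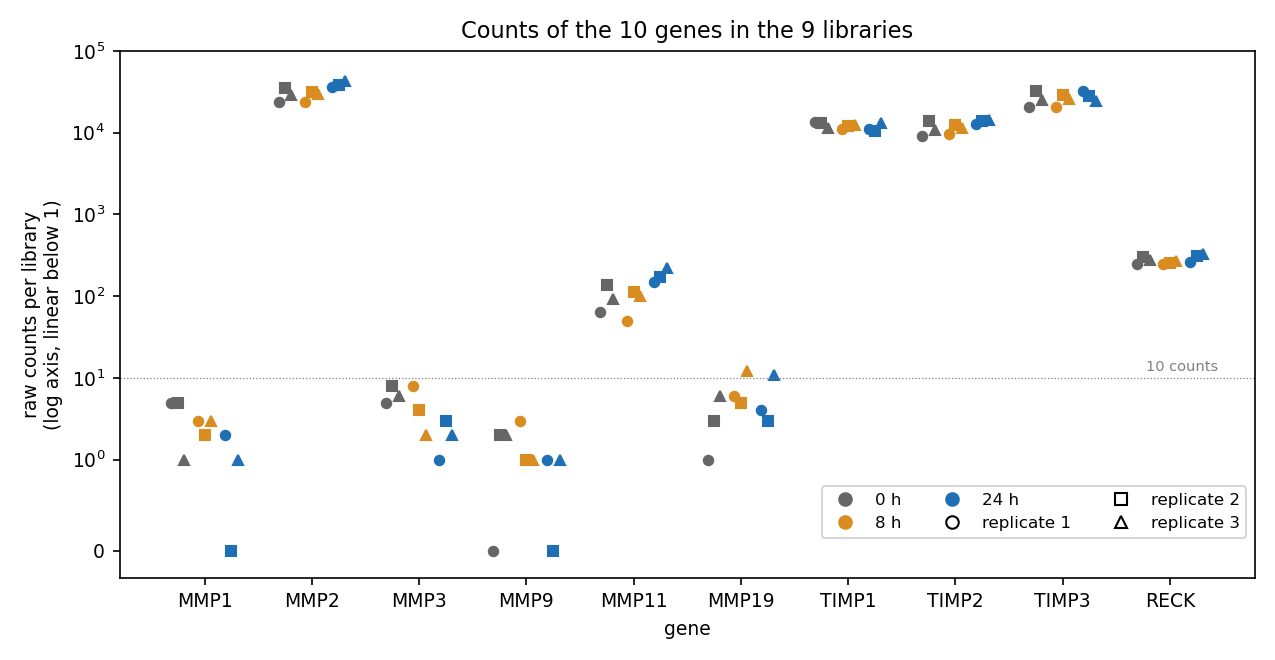
Raw counts of the 10 genes (x axis) in each of the 9 libraries (y axis, logarithmic above 1 and linear below), with colour for the time in formate and symbol for the replicate number; the dotted line marks 10 counts. MMP1, MMP3 and MMP9 stay under the line in every library and MMP19 crosses it in 2, while the lowest point of MMP2, TIMP1, TIMP2 and TIMP3 is at 9041.

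Promoter sequences in the RefSeq table of build GRCh38.p14 matched 4 of the 10 genes, MMP11, TIMP1, TIMP3 and RECK. The 250 bases before the annotated start are shown for MMP11, the gene with the largest fitted difference, for TIMP1, the inhibitor with a negative fitted difference at 24 h, and for TIMP3, whose replicate 1 differed in direction from replicates 2 and 3 at 24 h. Capitals mark GC boxes (GGGCGG on either strand) and the CCAAT box (CCAAT on either strand), none overlapping another. The MMP11 window is chr22:23772599-23772848 (plus strand), the TIMP1 window chrX:47582186-47582435 (plus strand) and the TIMP3 window chr22:32801455-32801704 (plus strand).
MMP11: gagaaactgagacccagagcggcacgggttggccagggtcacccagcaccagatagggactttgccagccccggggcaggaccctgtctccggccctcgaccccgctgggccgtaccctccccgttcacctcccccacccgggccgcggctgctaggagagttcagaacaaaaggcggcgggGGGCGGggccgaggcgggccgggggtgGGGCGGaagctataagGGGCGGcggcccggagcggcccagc
TIMP1: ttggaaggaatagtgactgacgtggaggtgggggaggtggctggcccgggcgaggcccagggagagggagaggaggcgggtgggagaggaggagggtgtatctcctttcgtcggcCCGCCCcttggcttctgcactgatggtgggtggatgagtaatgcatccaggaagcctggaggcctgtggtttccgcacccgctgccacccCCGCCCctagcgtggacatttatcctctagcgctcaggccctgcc
TIMP3: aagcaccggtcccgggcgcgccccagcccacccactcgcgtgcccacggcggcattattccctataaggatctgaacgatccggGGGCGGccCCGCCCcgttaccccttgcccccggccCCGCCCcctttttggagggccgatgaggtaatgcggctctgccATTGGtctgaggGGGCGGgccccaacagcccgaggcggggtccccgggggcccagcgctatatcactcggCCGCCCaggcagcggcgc
The GC box, the sequence bound by Sp1-type factors, occurred 3 times before MMP11, 2 times before TIMP1, 5 times before TIMP3 and 3 times before RECK, and 42.6% of 35116 promoter windows of this length held it at least once. The CCAAT box occurred before TIMP3 only, among these 4 windows, and in 32.0% of all windows. The AP-1 element TGANTCA, the CRE TGACGTCA and the TATA box TATAAA, searched on both strands, were in none of the 4 windows. They were in 6.57%, 1.65% and 10.7% of all windows. Only exact matches were counted, so near matches, such as TGAGTAA to the AP-1 element in the TIMP1 window, were left out. The windows were rich in G and C, with 73.2% for MMP11, 64.8% for TIMP1, 72.4% for TIMP3 and 63.6% for RECK, against a median of 58.0%. These matches describe the letters only, and the start used in LN229 cells was not measured; for all 4 genes the RefSeq start lies inside the GENCODE gene, so that part of a window can be transcribed sequence.

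MMP2 (ENSG00000087245, chromosome 16, 55389700 to 55506691, plus strand), also called gelatinase A, was the main secreted protease of the set. Per kilobase of exon it made up 99.5% to 99.6% of the summed level of the 6 metalloproteinases in every library. Its level was 1129, 1351 and 1274 CPM (counts scaled to library size, with TMM factors) in replicates 1, 2 and 3 at 0 h, 1085, 1383 and 1254 CPM at 8 h, and 1530, 1636 and 1749 CPM at 24 h. All 3 libraries of 24 h lay above the other 6, and replicate 1 was the lowest of each group. The mean was 1251 ± 113 CPM at 0 h, 1240 ± 149 at 8 h and 1638 ± 109 at 24 h (SD, n = 3 libraries). Of the exonic sequence of MMP2, 3.53% is shared with a same-strand neighbour.

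At 24 h against 0 h the fitted log2 fold change of MMP2 was 0.39 with a standard error of 0.13 (95% interval 0.11 to 0.67), a 1.31-fold difference. It did not pass the threshold of 0.05 (edgeR quasi-likelihood, adjusted p = 0.0984 by Benjamini-Hochberg over 15273 genes). With the replicate number as a block the estimate was 0.39 (standard error 0.08, adjusted p = 0.00717), and MMP2 passed. The same-numbered libraries differed by 0.44, 0.28 and 0.46 on the log2 scale. Without the libraries numbered 1 MMP2 passed (log2 fold change 0.37, edgeR adjusted p = 0.0179, no block). That fit was chosen after seeing the data, had fewer libraries per group and called more of all genes than the main fit. DESeq2 called MMP2 with all libraries (0.38, adjusted p = 0.0255). In bulk RNA, more cells with the transcript and more transcript per cell cannot be told apart.

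MMP11 (ENSG00000099953, chromosome 22, 23768226 to 23784316, plus strand), or stromelysin 3, is a weak protease of classical matrix proteins. It was far less abundant than MMP2 and had the largest fitted difference of the tested genes. Its level was 3.02, 5.23 and 4.07 CPM in replicates 1, 2 and 3 at 0 h, 2.27, 4.85 and 4.29 CPM at 8 h, and 6.30, 7.41 and 9.19 CPM at 24 h. The libraries of 24 h again lay above all others, and replicate 1 was the lowest in each group, at 64.8%, 49.6% and 75.8% of the mean of replicates 2 and 3 at 0 h, 8 h and 24 h. The group means were 4.11 ± 1.11, 3.804 ± 1.36 and 7.63 ± 1.46 CPM (SD, n = 3).

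The log2 fold change of MMP11 at 24 h against 0 h was 0.89 (standard error 0.28, 95% interval 0.28 to 1.5), or 1.85-fold. It did not pass without the block (edgeR, adjusted p = 0.0856). With the replicate block it passed (0.91, standard error 0.17, adjusted p = 0.00398), with same-numbered differences of 1.06, 0.50 and 1.18. Of the exonic sequence of MMP11, 4.21% lies across from exons of an antisense neighbour. MMP11 passed in DESeq2 (0.88, adjusted p = 0.0289) and without the libraries numbered 1 (0.83, edgeR adjusted p = 0.0118). Both of these fits called more of all genes than the main fit, and the latter was chosen after seeing the data, with fewer libraries. With the block, both MMP2 and MMP11 passed in each of the 9 fits that left out 1 library (adjusted p up to 0.0365 and 0.0277).

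Summed markers of several other cell types were also higher in the libraries of 24 h, and those of others were not. The oligodendrocyte markers MAG, MBP and MOG, nearly all of them MAG, summed to 33.5 to 49.5 CPM at 0 h, 27.1 to 53.7 at 8 h and 70.2 to 111 at 24 h. The 4 fibroblast and pericyte markers summed to 38.5 to 56.6, 37.2 to 60.2 and 65.1 to 86 CPM, and the 3 neuronal markers in the table, of 4 listed, to 76.3 to 128, 95.5 to 121 and 154 to 167 CPM. Most of the fibroblast sum was LUM, with 26.3 to 67.5 CPM in a library, while RGS5 had 3.55 to 5.34. In the neuronal sum MAP2 ran from 37.5 to 113 CPM, SNAP25 from 7.4 to 25.9 and SYT1 from 28.3 to 40.5. The 3 endothelial markers in the table, of 5 listed, summed to 0.423 to 0.707, 0.363 to 0.699 and 1.16 to 1.86 CPM. Most of that sum was VWF, with 7 to 38 counts in a library, while PECAM1 had 0 to 3 and KDR 0 to 4. The 8 astroglial and glioma markers summed to 6180 to 8530, 6320 to 7200 and 5270 to 6100 CPM, lower at 24 h. The 4 epithelial markers summed to 140 to 203, 142 to 154 and 109 to 126 CPM, lower at 24 h, with EPCAM and CDH1 at most 1 and 2 counts. The 3 myeloid and lymphoid markers in the table, of 6 listed, summed to 0.231 to 0.612, 0.568 to 0.726 and 0.414 to 0.549 CPM. Their sums at 0 h and 24 h overlapped. The oligodendrocyte, fibroblast, neuronal and endothelial sums were thus higher at 24 h together with MMP2, MMP11 and TIMP2, and their part in the result was not tested.

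TIMP2 (ENSG00000035862, chromosome 17, 78852977 to 78925387, minus strand) inhibits MMP2 and also links its proenzyme to MMP14 on the cell surface, where the proenzyme is activated. TIMP2 stood at 426, 540 and 478 CPM in replicates 1, 2 and 3 at 0 h, at 434, 537 and 478 CPM at 8 h, and at 543, 595 and 597 CPM at 24 h. The lowest library of 24 h was just above the highest of 0 h. The log2 fold change at 24 h against 0 h was 0.27 (standard error 0.12, 95% interval 0.00 to 0.54) and did not pass (edgeR, adjusted p = 0.195). With the replicate block it passed (0.27, standard error 0.08, adjusted p = 0.0310). That call was lost in 6 of the 9 block fits that left out 1 library, with an adjusted p of 0.0824 and 0.0885 without replicates 2 and 3 of 0 h, 0.0666 and 0.0645 without replicates 2 and 3 of 8 h, and 0.112 and 0.109 without replicates 1 and 3 of 24 h. Without the libraries numbered 1 it was 0.23 (adjusted p = 0.108). Another gene overlaps 6.52% of the TIMP2 exons on the opposite strand, and 3.52% are shared on the same strand.

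TIMP1 (ENSG00000102265, chromosome X, 47582313 to 47586789, plus strand), a broad inhibitor that is weak against the membrane-bound MMP14, showed no such difference. Its level was 636, 508 and 504 CPM in replicates 1, 2 and 3 at 0 h, 495, 526 and 527 CPM at 8 h, and 469, 450 and 541 CPM at 24 h. Replicate 1 of 0 h was the highest of all libraries, and the groups overlapped. The log2 fold change at 24 h against 0 h was -0.18 (standard error 0.12, 95% interval -0.45 to 0.10, edgeR adjusted p = 0.376; with the block -0.17, adjusted p = 0.255). Without the libraries numbered 1 it was -0.03 (adjusted p = 0.868).

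TIMP3 (ENSG00000100234, chromosome 22, 32801701 to 32863043, plus strand) is the inhibitor that stays bound to the matrix, and it also blocks several ADAM proteases. Its libraries read 970, 1254 and 1119 CPM in replicates 1, 2 and 3 at 0 h, 942, 1261 and 1095 CPM at 8 h, and 1354, 1199 and 998 CPM at 24 h. Replicate 1 was the lowest at 0 h and 8 h and the highest at 24 h. From 0 h to 24 h the same-numbered libraries differed by 0.48, -0.06 and -0.16 on the log2 scale. The fitted value was 0.09 (standard error 0.16, 95% interval -0.25 to 0.43, edgeR adjusted p = 0.743; with the block 0.09, adjusted p = 0.619), and without the libraries numbered 1 it was -0.11 (adjusted p = 0.546). The direction of TIMP3 at 24 h thus rested on replicate 1.

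RECK (ENSG00000122707, chromosome 9, 36036433 to 36124451, plus strand), a glycoprotein anchored to the cell membrane, lay at 11.7, 11.7 and 12.1 CPM in replicates 1, 2 and 3 at 0 h, 11.1, 10.97 and 11.5 CPM at 8 h, and 11.1, 13.2 and 13.6 CPM at 24 h. The spread was small at 0 h and 8 h (SD 0.220 and 0.261 CPM) and larger at 24 h (SD 1.36 CPM), where replicate 1 was the low one. The log2 fold change at 24 h against 0 h was 0.10 (standard error 0.12, 95% interval -0.16 to 0.36, edgeR adjusted p = 0.622; with the block 0.09, adjusted p = 0.550).

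**Figure D2:**
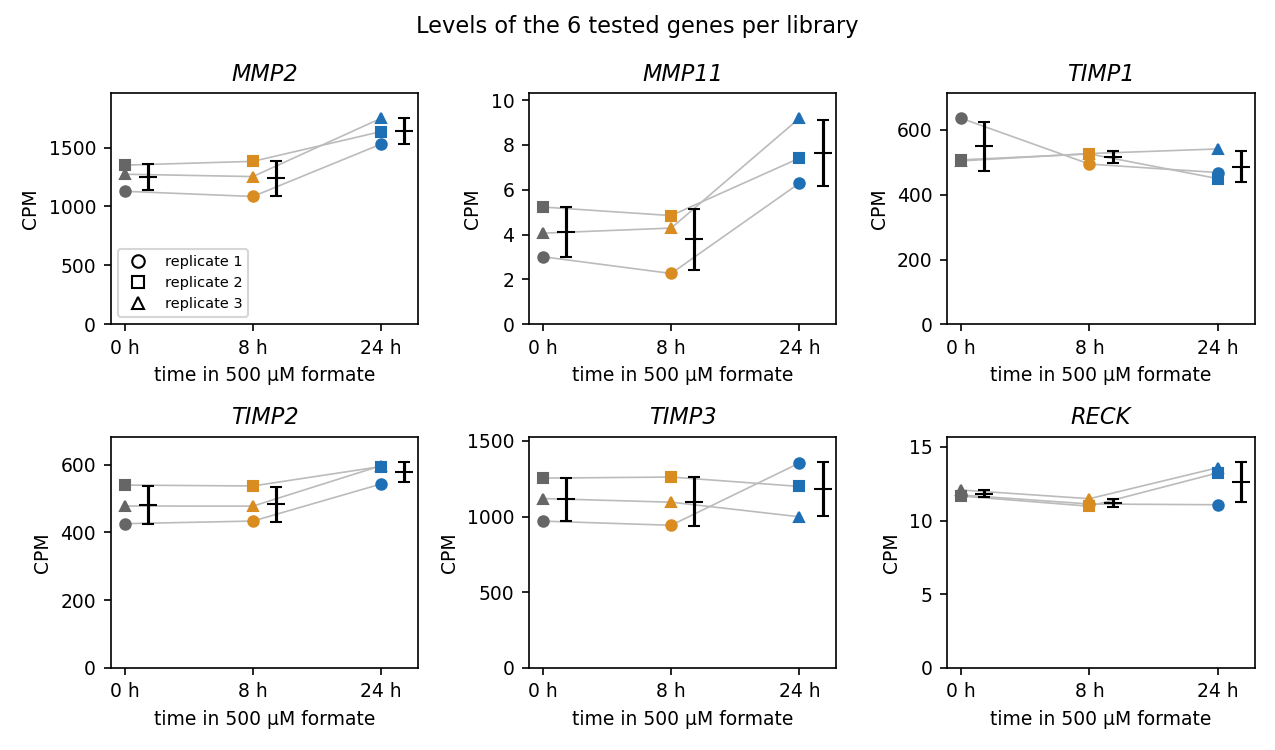
CPM (y axis, from 0) of the 6 tested genes at 0 h, 8 h and 24 h of 500 µM formate; symbols are replicates, grey lines join the libraries with the same replicate number, and the black bars beside them are the mean ± SD of 3 libraries. For MMP2, MMP11 and TIMP2 the 3 libraries of 24 h lie above those of 0 h and 8 h, while for TIMP3 replicate 1 ends highest at 1354 CPM after starting lowest at 970 CPM.

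Between 0 h and 24 h, then, 0 of the 6 tested genes passed in edgeR without the block, where 4.25% of all tested genes did (2.47% higher and 1.77% lower); 2 had an unadjusted p under 0.05 (26.4% of all genes), limma-voom called 0 (4.37%) and DESeq2 called 2 (11.8%). With the replicate block 3 passed, all higher, against 24.1% of all genes (12.6% higher and 11.6% lower). The replicates of 0 h and 24 h did not overlap for 3 of the 6, all higher, against 30.2% of all genes (15.8% higher). For any difference among the 3 groups 0 of the 6 passed in edgeR (3.64% of all genes), 2 passed in DESeq2 (10.4%) and 3 with the replicate block (19.6%). The median log2 fold change was 0.18 over the 6 genes and 0.01 over all tested genes. The intervals of TIMP1, TIMP3 and RECK each include 0 and leave room for differences up to 0.10, 0.43 and 0.36 upward and 0.45, 0.25 and 0.16 downward on the log2 scale.

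At 8 h against 0 h no difference was detected. Of the 6 genes 0 passed in edgeR, limma-voom or DESeq2, and 0 had an unadjusted p under 0.05, against 0.517% of all tested genes; no gene of the whole table passed (0%). The fitted log2 fold changes were -0.01 for MMP2 (95% interval -0.29 to 0.27), -0.11 for MMP11 (-0.75 to 0.52), -0.09 for TIMP1 (-0.36 to 0.18), 0.00 for TIMP2 (-0.27 to 0.27), -0.02 for TIMP3 (-0.36 to 0.32) and -0.08 for RECK (-0.34 to 0.18). RECK was lower in all 3 libraries of 8 h than in all 3 of 0 h, by 0.08, 0.09 and 0.07 between same-numbered libraries, and its adjusted p was 0.9999; 3.31% of all genes had replicates that did not overlap, 1.88% lower. The interval of MMP2 excludes a change of the size fitted at 24 h (0.39), and that of MMP11 excludes 0.89.

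The comparison of 24 h with 8 h sets the 2 formate times against each other. The fitted log2 fold changes were 0.40 for MMP2 (standard error 0.13, edgeR adjusted p = 0.0949), 1.0 for MMP11 (standard error 0.28, adjusted p = 0.0642), 0.26 for TIMP2 (standard error 0.12, adjusted p = 0.235), 0.17 for RECK (adjusted p = 0.408), 0.11 for TIMP3 (adjusted p = 0.714) and -0.08 for TIMP1 (adjusted p = 0.715). None of the 6 passed, against 4.56% of all tested genes; 2 had an unadjusted p under 0.05 (22.8% of all), limma-voom called 0 (4.86%) and DESeq2 called MMP2 and MMP11 (10.3%). The replicates of 8 h and 24 h did not overlap for 3 of the 6 genes, all higher, against 34.3% of all genes (18.2% higher). Without the block MMP2 and MMP11 passed at 24 h against 8 h in 1 of the 9 fits that left out 1 library. That was the fit without replicate 1 of 0 h, with an edgeR adjusted p of 0.0383 and 0.0246. This library is in neither group compared and enters only through the shared estimate of the spread, the filter and the scaling. The count of all genes called also varied widely with the library left out, as given below. Both comparisons with 24 h share its 3 libraries.

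**Figure D3:**
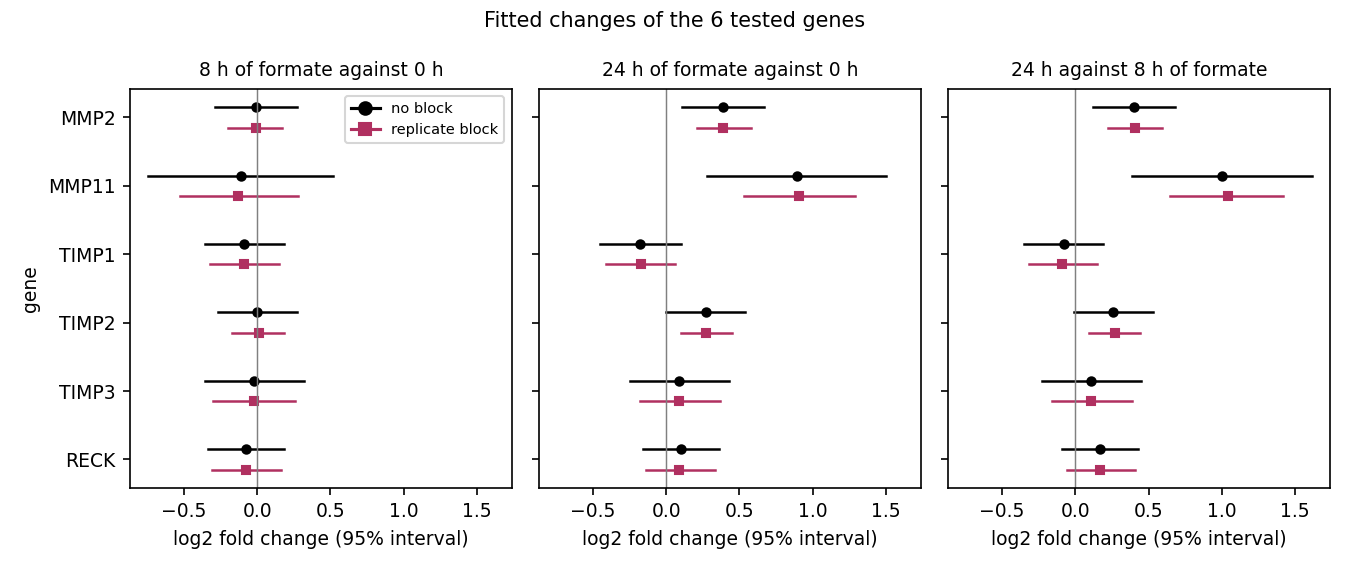
Fitted log2 fold changes (x axis) with 95% intervals for the 6 tested genes (y axis) in the 3 comparisons, without the replicate block (black circles) and with it (red squares). The estimates hardly move between the fits, at 0.39 and 0.39 for MMP2 at 24 h against 0 h, while the intervals are narrower with the block.

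The 4 nearly silent genes are reported by their counts. MMP1, the interstitial collagenase (ENSG00000196611, chromosome 11, 102789920 to 102798160, minus strand), had 5, 5 and 1 counts in replicates 1, 2 and 3 at 0 h, 3, 2 and 3 at 8 h, and 2, 0 and 1 at 24 h. MMP3, stromelysin 1 (ENSG00000149968, chromosome 11, 102835801 to 102843803, minus strand), had 5, 8 and 6 counts at 0 h, 8, 4 and 2 at 8 h, and 1, 3 and 2 at 24 h. MMP3 was thus lower in each library of 24 h than in each of 0 h, at a level of a few reads.

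MMP9, or gelatinase B (ENSG00000100985, chromosome 20, 46008908 to 46016561, plus strand), had 0, 2 and 2 counts in replicates 1, 2 and 3 at 0 h, 3, 1 and 1 at 8 h, and 1, 0 and 1 at 24 h. MMP19 (ENSG00000123342, chromosome 12, 55835433 to 55842966, minus strand), a widely expressed protease of basement membrane proteins, had 1, 3 and 6 counts at 0 h, 6, 5 and 12 at 8 h, and 4, 3 and 11 at 24 h. Another gene overlaps 18.4% of the MMP9 exons and 17.4% of the MMP19 exons on the opposite strand, and 7.61% of those of MMP1, and 1.56% of those of MMP3. The counts of MMP9 and MMP19 overlapped between 0 h and 24 h.

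Summed over the 3 libraries, MMP1 had 11, 8 and 3 counts at 0 h, 8 h and 24 h, with exact 95% Poisson intervals of 5.49 to 19.7, 3.45 to 15.8 and 0.619 to 8.77. MMP3 had 19, 14 and 6 (11.4 to 29.7, 7.65 to 23.5 and 2.2 to 13.1), MMP9 had 4, 5 and 2 (1.09 to 10.2, 1.62 to 11.7 and 0.242 to 7.22), and MMP19 had 10, 23 and 18 (4.80 to 18.4, 14.6 to 34.5 and 10.7 to 28.4). The intervals cover counting error only, and within each gene those of 0 h and 24 h overlap. Tested without the filter, no adjusted p at 24 h against 0 h was under 0.05 (0.273 for MMP1, 0.176 for MMP3, 0.707 for MMP9 and 0.561 for MMP19, edgeR). No difference in these 4 genes passed the threshold, and their counts are too low to judge whether there was one.

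Levels of different genes were compared per kilobase of exon (RPKM). At 0 h the order was TIMP1 (357 ± 48.8 RPKM), MMP2 (254 ± 22.9), TIMP3 (242 ± 30.8), TIMP2 (85.45 ± 10.1), RECK (1.955 ± 0.0363) and MMP11 (0.793 ± 0.214; SD, n = 3). The replicates of MMP2 and TIMP3 overlapped, and the other neighbours among these 6 did not. MMP2, TIMP1 and TIMP3 lay above 99.3%, 99.6% and 99.2% of the 15158 tested genes with a length, TIMP2 above 97.1%, RECK above 34.2% and MMP11 above 20.9%. Among the libraries of 24 h MMP2 (332 ± 22.2 RPKM) overlapped TIMP1 (316 ± 31.4), which overlapped TIMP3 (257), and MMP11 (1.48 ± 0.282) stayed below RECK (2.09 ± 0.225). The order depends on the length used: with the coding length, TIMP3 led at 0 h (1760), followed by TIMP1 (885), TIMP2 (729) and MMP2 (632), whose neighbours overlapped after TIMP3. With that length MMP11 (5.22) and RECK (4.34) overlapped at 24 h, MMP11 having the higher mean.

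The balance of protease and inhibitor transcripts was read as a ratio of RPKM within each library. MMP2 to TIMP2 was 3.03, 2.86 and 3.04 in replicates 1, 2 and 3 at 0 h, 2.86, 2.94 and 2.996 at 8 h, and 3.22, 3.14 and 3.34 at 24 h. The 3 libraries of 24 h were above the other 6, and replicate 1 did not stand apart in this ratio, though both of its genes were lowest there. MMP2 to TIMP1 was 0.554, 0.831 and 0.789 at 0 h, 0.685, 0.821 and 0.743 at 8 h, and 1.02, 1.14 and 1.01 at 24 h, again with 24 h above all others. MMP2 to TIMP3 was 1.01 to 1.09 at 0 h, 1.02 to 1.07 at 8 h, and 1.055, 1.27 and 1.63 in replicates 1, 2 and 3 at 24 h, where replicate 1 lay within the range of the earlier times. Against the sum of the 3 TIMPs, MMP2 was 0.371 ± 0.0381 at 0 h, 0.381 ± 0.0148 at 8 h and 0.492 ± 0.0409 at 24 h (SD, n = 3). These ratios were formed from genes whose separate changes are given above, and no test was made on them; another length would multiply each single ratio by a constant.

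**Figure D4:**
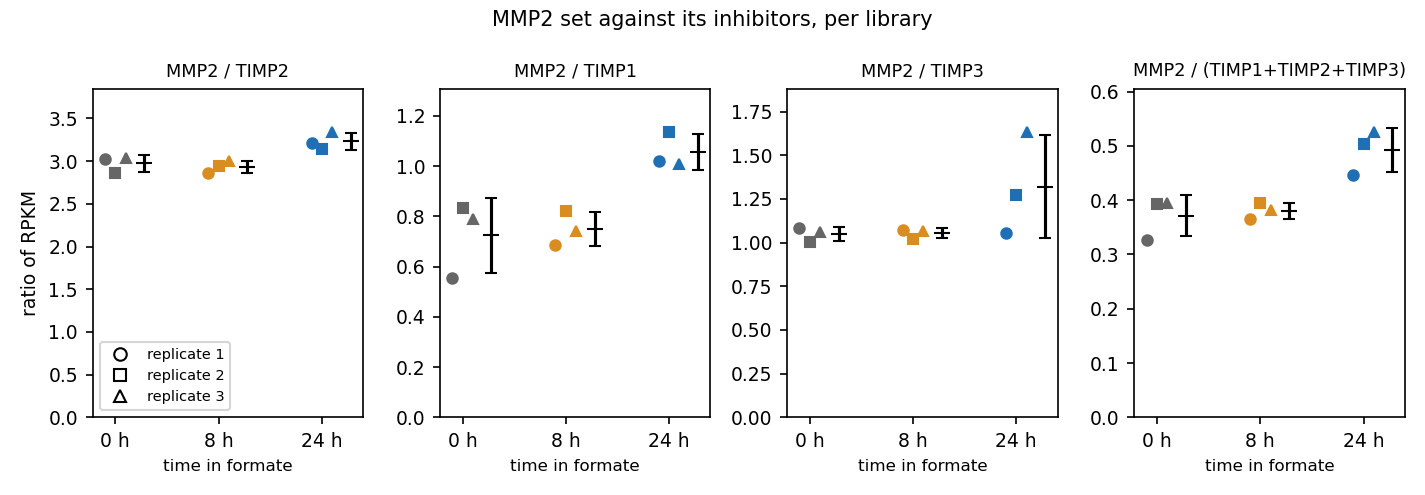
Ratio of RPKM (y axes, from 0) of MMP2 to TIMP2, to TIMP1, to TIMP3 and to the sum of the 3, in each library at 0 h, 8 h and 24 h; symbols are replicates and black bars the mean ± SD. The libraries of 24 h lie above the others in all panels but that of TIMP3, where replicate 1 of 24 h, at 1.055, does not.

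The levels of MMP2 and MMP11 followed patterns shared by other genes. Over the 9 libraries, the genes whose log2 CPM was most like MMP11 were TBX2 (Pearson r = 0.9947), NCALD (0.9938) and S100B (0.9927), among 10905 genes with a symbol and a mean of at least 5 CPM. Those most like MMP2 were GSN (0.9958), which encodes the actin-severing protein gelsolin, GRAMD2B (0.9949) and FZD7 (0.9943), a Wnt receptor. GSN went from a mean of 210 CPM at 0 h to 202 at 8 h and 385 at 24 h, and S100B from 130 to 122 and 339. These correlations describe libraries that share their treatment group and replicate number, and many genes were searched.

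Proteins that activate, anchor, clear or inhibit metalloproteinases formed the next list, with 18 of 20 genes tested. Between 0 h and 24 h 1 rose and 3 fell without the block, and 3 rose and 8 fell with it; over all tested genes 2.47% rose and 1.77% fell without the block, and 12.6% rose and 11.6% fell with it. The median log2 fold change was -0.28, against 0.01 over all tested genes. TFPI2, a Kunitz-type serine protease inhibitor of the matrix, fell by 0.74 (edgeR adjusted p = 0.0167), from 162 to 197 CPM at 0 h down to 103 to 113 CPM at 24 h. THBS1 (log2 fold change -1.63, adjusted p = 0.0359) fell and THBS2 (0.75, adjusted p = 0.0436) rose; they encode thrombospondins, which bind several proteases and take part in their clearance. Another gene overlaps 7.58% of the THBS1 exons on the opposite strand. MMP14, named here after its values were seen because it activates the MMP2 proenzyme, lay between 231 and 265 CPM in all 9 libraries (log2 fold change at 24 h against 0 h -0.08, adjusted p = 0.594).

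A list of 14 transcription factors, all tested, held members of the AP-1, ETS and NF-kB families, known regulators of several metalloproteinase genes, together with EGR1, a factor outside those families. Of these 1 rose and 1 fell from 0 h to 24 h without the block, and 5 rose and 4 fell with it, beside 4.25% and 24.1% of all tested genes called in either direction; the median was -0.14. The gene that rose without the block was EGR1. EGR1, an immediate-early zinc finger factor, rose by 0.75 (standard error 0.17, adjusted p = 0.0359), from 110, 168 and 137 to 213, 282 and 202 CPM. FOSL2, an AP-1 subunit, fell by 0.81 (standard error 0.17, adjusted p = 0.0304), from 48.7, 42.1 and 41.4 to 30.3, 23.7 and 21.4 CPM.

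Among matrix and other substrates of these enzymes 22 of 23 genes were tested. From 0 h to 24 h 2 rose and 0 fell without the block, and 7 rose and 5 fell with it, with a median of 0.04; the shares over all tested genes were 2.47% and 1.77% without the block, and 12.6% and 11.6% with it. LAMC1, a laminin chain of basement membranes, rose by 0.58 (adjusted p = 0.0317), from 508, 676 and 658 to 919, 930 and 907 CPM. LAMA5, another laminin chain, rose by 1.01 (adjusted p = 0.0396) from 2.54 to 4.47 CPM at 0 h to 5.24 to 8.65 CPM at 24 h. At 8 h against 0 h no gene of these lists passed. Without the block, no gene of the whole table passed at 24 h against 0 h when replicate 2 or replicate 3 of 24 h was left out, while with the block 2518 and 2482 genes did. The fitted values of the named list genes kept their direction in these fits: THBS1 was -1.60 and -1.31, THBS2 0.84 and 0.60, TFPI2 -0.71 and -0.74, FOSL2 -0.77 and -0.71, EGR1 0.58 and 0.83, LAMC1 0.56 and 0.58, and LAMA5 1.01 and 0.81 without replicates 2 and 3, no block. With the block all 7 passed without either library (edgeR adjusted p up to 0.0154). THBS2 also missed the threshold without the block when replicate 1 of 24 h was left out (0.77, adjusted p = 0.056).

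**Figure D5:**
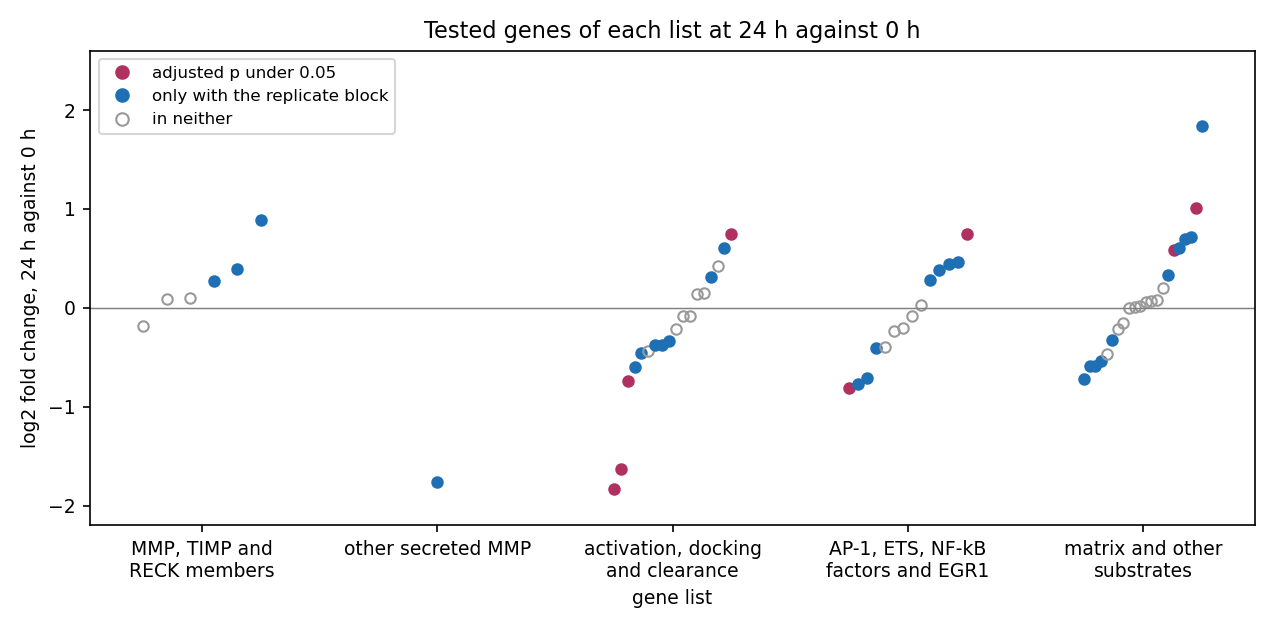
Log2 fold change at 24 h against 0 h (y axis) of each tested gene of the 5 lists (x axis), coloured by whether the adjusted p was under 0.05 without the block, with the replicate block alone, or in neither fit. The 6 tested members lie between -0.18 and 0.89, with MMP11 the highest of them.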

How the data were processed

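The authors deposited 1 table of raw counts per Ensembl gene for 9 poly(A)-selected, stranded libraries. bcl2fastq 2.20.0.422, STAR 2.7.4a and the build GRCh38 are named in the submitters' processing notes; the counting program, the annotation and the strand setting are not given in the sources used here, so opposite-strand overlaps are stated. Coordinates and exon lengths were taken from GENCODE 29 (GRCh38), where 98.0% of the genes were found.

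The filterByExpr rule left 15273 genes. Counts were fitted with edgeR 4.0.16 (R 4.3.3) with TMM factors and 1 mean per group, by the two-sided quasi-likelihood test with Benjamini-Hochberg adjustment over all tested genes and a threshold of 0.05. The pipeline was run on simulated counts that held no replicate effect, so that run cannot speak to the replicate block. RPKM is CPM per kilobase of the union of exons. Nothing says that replicates were separate cultures, so p-values measure the spread between these libraries, which may be technical.

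The deviations of same-numbered libraries from their group means correlated across genes with r of 0.476, 0.432 and 0.414 between 0 h and 8 h, and 0.367, 0.164 and 0.251 between 0 h and 24 h, so the numbers, taken from the titles, were read as pairing these groups. Libraries of 0 h and 8 h with different numbers had r of at most 0.0108. Among differently numbered libraries of 0 h and 24 h, replicate 3 of 0 h and replicate 2 of 24 h reached 0.27. That is above the same-numbered values of replicates 2 and 3 (0.164 and 0.251). The other differently numbered pairs of 0 h and 24 h lay between -0.4 and 0.0115. The pairing of 0 h with 24 h was thus clear for replicate 1 only. Same-numbered libraries of 8 h and 24 h gave 0.423, 0.0367 and 0.404, listed from replicate 1 to replicate 3. No pairing was assumed for that comparison. The block was nonetheless 1 replicate term over all 9 libraries. The block fits of 24 h against 0 h thus also treated 8 h and 24 h as paired. Their calls depend on that and on the pairing of 0 h with 24 h.

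The members and the lists were chosen with earlier results of these data known. All 10 members are named. Some results for other genes are not reported here. From each other list up to 4 called genes are named by the smallest p from 0 h to 24 h, or, where under 2 were called, the 2 of smallest p; the 3 genes most like a member are given for the 2 members with the smallest p in the F test over the 3 groups. Alternatives were RLE and upper-quartile factors, no filter, DESeq2 1.42.0, limma-voom (limma 3.58.1), the replicate block, each library left out, only the 2 groups compared, and, chosen after seeing the data, all libraries numbered 1 left out.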

Additional observations from a re-analysis of the deposited data

How the results depend on the processing

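The count of all genes called at 24 h against 0 h was 649; it was 1656 with DESeq2, 3687 with the replicate block, 124 with only the 2 groups in the fit and 2616 without the libraries numbered 1. It ran from 0 to 899 over the fits that left out 1 library, and from 2213 to 3816 over those with the block. At 24 h against 8 h it was 696, and 1486, 3130, 1787 and 3072 under the same alternatives, from 0 to 2545 with 1 library left out and from 1179 to 5432 with the block as well. For any difference among the 3 groups it was 556, and 1525 with DESeq2, 2986 with the replicate block and 2476 without the libraries numbered 1, from 0 to 1276 with 1 library left out and from 1431 to 4636 with the block as well.

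The count of members called at 24 h against 0 h was 0; it was 2 with DESeq2, 3 with the replicate block and 2 without the libraries numbered 1, 0 in all 9 fits that left out 1 library, and from 2 to 3 in those with the block. At 24 h against 8 h, where no pairing was assumed, it was 0, and 2 with DESeq2, 3 with the replicate block (MMP2, MMP11 and TIMP2, adjusted p 0.00629, 0.00211 and 0.0374), 1 with only the 2 groups in the fit and 2 without the libraries numbered 1, from 0 to 2 with 1 library left out and from 1 to 3 with the block as well. For any difference it was 0, and 2, 3 and 2 with DESeq2, the block and without the libraries numbered 1, 0 with 1 library left out and from 1 to 3 with the block as well. At 8 h against 0 h every fit that was run gave 0. The block changed no call of a member at 8 h. In the other comparisons DESeq2, the block and leaving out the libraries numbered 1 also called more of all genes, as counted above. At 24 h against 0 h the share of all tested genes called was 4.25% in edgeR, 11.8% in DESeq2 and 24.1% with the block. For any difference it was 3.64%, 10.4% and 19.6% in the same order.

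The fitted values of MMP2 and MMP11 at 24 h against 0 h stayed positive in every fit, from 0.30 to 0.45 and from 0.69 to 1.10 with 1 library left out (adjusted p from 0.0946 to 0.290 and from 0.0513 to 0.292). TIMP3 at 24 h against 0 h was -0.11 without the libraries numbered 1, and from -0.02 to 0.19 with 1 library left out (-0.12 to 0.22 with the block); at 24 h against 8 h it was -0.10, from -0.01 to 0.22 and from -0.10 to 0.23. At 8 h against 0 h, where each estimate was close to 0, signs turned: without the libraries numbered 1 MMP2 was 0.01, TIMP1 0.06 and TIMP2 0.00. With 1 library left out, MMP2 ran from -0.10 to 0.08 (with the block -0.07 to 0.02), MMP11 from -0.33 to 0.15 (-0.26 to 0.01), TIMP1 from -0.15 to 0.02 (-0.18 to 0.05), TIMP2 from -0.08 to 0.09 (-0.02 to 0.04) and TIMP3 from -0.13 to 0.09 (-0.11 to 0.09). The cause of these differences was not tested. Depth limits the 4 genes with at most 12 counts in a library.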

Other observations

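MMP10, stromelysin 2, was the only tested gene among the other secreted metalloproteinases and TIMP4, of which 6 of 11 were in the table. It lies beside MMP1 on chromosome 11 (102770503 to 102780628, minus strand). Its level was 0.989, 0.616 and 0.309 CPM in replicates 1, 2 and 3 at 0 h, 0.862, 0.830 and 0.340 CPM at 8 h, and 0.211, 0.259 and 0.0828 CPM at 24 h, so that the libraries of 24 h lay below the other 6. The log2 fold change at 24 h against 0 h was -1.76 (standard error 0.59, edgeR adjusted p = 0.0957, with the replicate block 0.00722). MMP10 had only 21, 16 and 7 counts at 0 h, 19, 19 and 8 at 8 h, and 5, 6 and 2 at 24 h. Its mean count was under 30 in each group, so these values are imprecise, and DESeq2 gave it no adjusted p at 24 h against 0 h. MMP8, the neutrophil collagenase, had 4, 5 and 6 counts at 0 h, 1, 9 and 7 at 8 h, and 6, 10 and 11 at 24 h, and was too low to test, as were MMP7, MMP13, MMP28 and TIMP4 with at most 5 counts in a library.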
